A study of Mus musculus with 100 samples.

Results

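A set of 10 germline genes, taken as members of a class that somatic cells silence by promoter methylation, was followed by RNA-seq from fibroblasts to pluripotent cells. The genes were chosen by name and are Dazl, Stra8, Ddx4, Tdrd1, Mael, Asz1, Sycp1, Sycp3, Hormad1 and Tex101, 10 of the 25965 genes in the expression table. Many genes of this class carry CpG-dense promoters that gain DNA methylation when the embryo implants. They are transcribed again when primordial germ cells erase that methylation, and in pluripotent cells with little DNA methylation some of them are transcribed as well. For that reason they are used as a readout of promoter demethylation, but promoter methylation itself was not analysed here, so the values are levels of RNA only.

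The 18 libraries fell into 6 groups of 3 biological replicates. MEFs, mouse embryonic fibroblasts, came from F1 hybrid embryos of an i4F-BL6 mother and a CAST father. The mother carries a doxycycline-inducible cassette of Oct4, Sox2, Klf4 and c-Myc. The paper lists only 1 female embryo as a source of MEFs, so the 3 Female MEF libraries do not stand for 3 animals. F KSR2 and F KSR4 (female) and M KSR3 and M KSR5 (male) are induced pluripotent stem cell lines (KSR-iPSCs) made from such MEFs with doxycycline in medium with Knockout Serum Replacement, and each line is 1 clone, so a difference between lines is a difference between clones. TX 2i ESCs are the female embryonic stem cell line TX1072, from a BL6 mother and a CAST father, grown with inhibitors of MEK and GSK3. The paper reports considerably less global DNA methylation in them than in KSR-iPSCs, and mostly erased imprints. KSR-iPSCs and TX 2i ESCs thus differ in origin and in medium, which cannot be told apart. TX 2i ESCs are also female, while the KSR-iPSC lines are of both sexes, so sex differs in part too.

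Each library held between 13183036 and 17921280 reads on genes. Levels are given as RPM, the reads of a gene scaled to the mapped reads of the library, and were not divided by gene length. The labels held against marker genes: 8 pluripotency genes summed to at most 2.29 RPM in MEFs and to between 3674 and 7824 RPM in the 15 pluripotent libraries. A list of 15 fibroblast genes summed to at least 25896 RPM in MEFs and to at most 99.95 RPM in pluripotent libraries other than M KSR5 replicate 3, at 218 RPM. F KSR4 replicate 2 also stood apart: its log2 values correlated with those of the other 2 libraries of its line at 0.911 and 0.916 over 14632 genes, while F KSR4 replicates 1 and 3 correlated at 0.936 and all other libraries of a line at 0.949 or more. Calls on the 10 genes that change without both libraries are given with the comparison they belong to. The MEFs are female, so a male line against MEFs also differs in sex. Genes of the 2-cell-like state, a rare state of embryonic stem cells, summed to at most 4.39 RPM in any library.

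The promoters set the class apart from most genes. Over the 250 bases before the RefSeq start site (build GRCm38.p6), the 10 genes held between 5 and 31 CpG dinucleotides with a median of 16.0, against a median of 6.0 over 32851 RefSeq promoters. The ratio of observed to expected CpG was at least 0.6 in 8 of the 10 windows and in 34.0% of all promoters. Ddx4 had the densest window, with 31 CpGs. In the GENCODE annotation 165 of its 250 bases lay in exons of Ddx4, as all 250 bases of the Stra8 window did in exons of Stra8. The windows with a ratio below 0.6 were those of Tdrd1, with 11 CpGs and a ratio of 0.53, and Stra8, with 5 CpGs and a ratio of 0.27. The RefSeq start of Stra8 lies 785 bases inside the gene as the expression table draws it. The 250 bases before that outer start held 7 CpGs and a ratio of 0.49. The 6 letters CACGTG, an E-box of the kind bound by Max and its partners, stood in 6 of the 10 windows (Ddx4, Mael, Sycp1, Sycp3, Tdrd1 and Hormad1) and in 6.02% of all promoters. The letters GCGGGA, or TCCCGC on the other strand, which resemble the E2F site, stood in 4 windows (Ddx4, Mael, Sycp3 and Hormad1) and in 16.9% of all promoters. The letters TCGCGA stood in 1 window (Sycp1) and in 2.08% of all promoters. All motifs were searched on both strands, no match overlapped another in these windows, and a match of letters is not a bound site.

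The windows of 4 genes are shown because they span the class, from a meiotic gene transcribed at high level (Hormad1) through a gene with a pair of E-boxes close to its start (Sycp3) and a gene read almost only from the BL6 copy (Mael) to the gene that varied most between lines (Asz1). They read 5′ to 3′ on the strand of the gene, from 250 bases before the RefSeq start site to the base before it, with every CpG in capitals. The windows lie at chr3:95559427-95559676 on the plus strand (Hormad1), chr10:88459337-88459586 on the plus strand (Sycp3), chr1:166238745-166238994 on the minus strand (Mael) and chr6:18109062-18109311 on the minus strand (Asz1).
Hormad1: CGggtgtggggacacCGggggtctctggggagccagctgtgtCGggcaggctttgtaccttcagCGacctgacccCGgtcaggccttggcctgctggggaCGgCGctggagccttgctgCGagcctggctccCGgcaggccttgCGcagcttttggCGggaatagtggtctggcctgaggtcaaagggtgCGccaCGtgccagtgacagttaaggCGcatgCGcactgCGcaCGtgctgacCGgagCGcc
Sycp3: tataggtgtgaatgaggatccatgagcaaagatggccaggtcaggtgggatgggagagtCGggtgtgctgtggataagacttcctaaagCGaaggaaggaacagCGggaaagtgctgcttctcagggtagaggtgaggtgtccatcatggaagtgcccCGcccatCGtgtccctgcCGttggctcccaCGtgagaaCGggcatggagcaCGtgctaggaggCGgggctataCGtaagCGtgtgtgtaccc
Mael: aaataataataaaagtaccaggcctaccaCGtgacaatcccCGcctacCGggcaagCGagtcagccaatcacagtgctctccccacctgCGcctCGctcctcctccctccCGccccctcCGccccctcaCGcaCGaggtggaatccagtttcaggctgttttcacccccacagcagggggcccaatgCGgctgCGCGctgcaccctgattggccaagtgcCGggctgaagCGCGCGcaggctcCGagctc
Asz1: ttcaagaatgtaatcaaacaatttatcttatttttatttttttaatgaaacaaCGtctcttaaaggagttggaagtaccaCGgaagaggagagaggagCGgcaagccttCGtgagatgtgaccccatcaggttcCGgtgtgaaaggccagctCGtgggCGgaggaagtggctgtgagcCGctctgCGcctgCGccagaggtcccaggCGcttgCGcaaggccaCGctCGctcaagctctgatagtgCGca
In these windows CACGTG begins 57 and 20 bases before the start of Hormad1, 64 and 43 bases before that of Sycp3 and 223 bases before that of Mael, while the Asz1 window has neither motif. The CpGs number 19 for Hormad1, 12 for Sycp3, 18 for Mael and 15 for Asz1.

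The comparison with MEFs asks which of the genes were transcribed after reprogramming. In MEFs the 10 genes together gave between 0.420 and 0.794 RPM per library, and no gene but Ddx4 and Tdrd1 had a read in all 3 libraries. The sum was between 187 and 488 RPM in the 12 KSR-iPSC libraries and between 106 and 251 RPM in TX 2i ESCs. Mael, Hormad1 and Tex101 had 0 reads in the MEF libraries. Ddx4, the RNA helicase known as mouse vasa homologue, was the gene most often read in MEFs, with 17 reads in all (0.550, 0.255 and 0.158 RPM).

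Of the 10 genes, 9 exceeded 0 on the log2 scale in 3 or more libraries and were tested with limma, which adjusts p over all 14632 genes tested. Against MEFs 9 of 9 were higher in F KSR2, where 38.0% of all genes were higher. In M KSR3 9 of 9 were higher (39.4% of all genes), in F KSR4 8 of 9 (34.6%), in M KSR5 8 of 9 (39.0%) and in TX 2i ESCs 8 of 9 (37.5%). Asz1 in F KSR4 (adjusted p = 0.0699) and in M KSR5 (adjusted p = 0.604) and Tdrd1 in TX 2i ESCs (adjusted p = 0.254) did not pass in the limma test. Tex101 was above 0 on the log2 scale in 2 libraries only and was not tested. Asz1 was above 0 in 7 libraries, 6 of them from M KSR3 and F KSR2. None of the 9 reached 1 RPM in a MEF library, so each passed the filter through pluripotent libraries alone and had to differ from MEFs somewhere, and nothing is read from these counts against the shares of all genes. These 5 comparisons share the MEF libraries.

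The size of the gain could be bounded from the reads. Taking 3 reads per MEF library as the floor where none was seen, Hormad1 was at least 333-fold higher in M KSR5 and at least 601-fold higher in F KSR4, the lowest and the highest bounds among the KSR-iPSC lines, and for TX 2i ESCs the bound was at least 177-fold higher. Mael was at least 40.9-fold (F KSR4) to 77.8-fold (M KSR3) higher in KSR-iPSCs, and for TX 2i ESCs the bound was at least 20.1-fold higher, or 11.6-fold without replicate 3. For Ddx4, where MEFs had reads to compare with, the ratio of pooled rates lay between 56.2 (95% exact counting interval 34.9 to 96.9) in F KSR2 and 109 (68.1 to 188) in M KSR3, and was 34.0 (21.0 to 58.7) in TX 2i ESCs. The intervals cover counting error only. In bulk RNA a lower level cannot tell fewer cells that transcribe a gene from less RNA per cell.

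**Figure D1:**
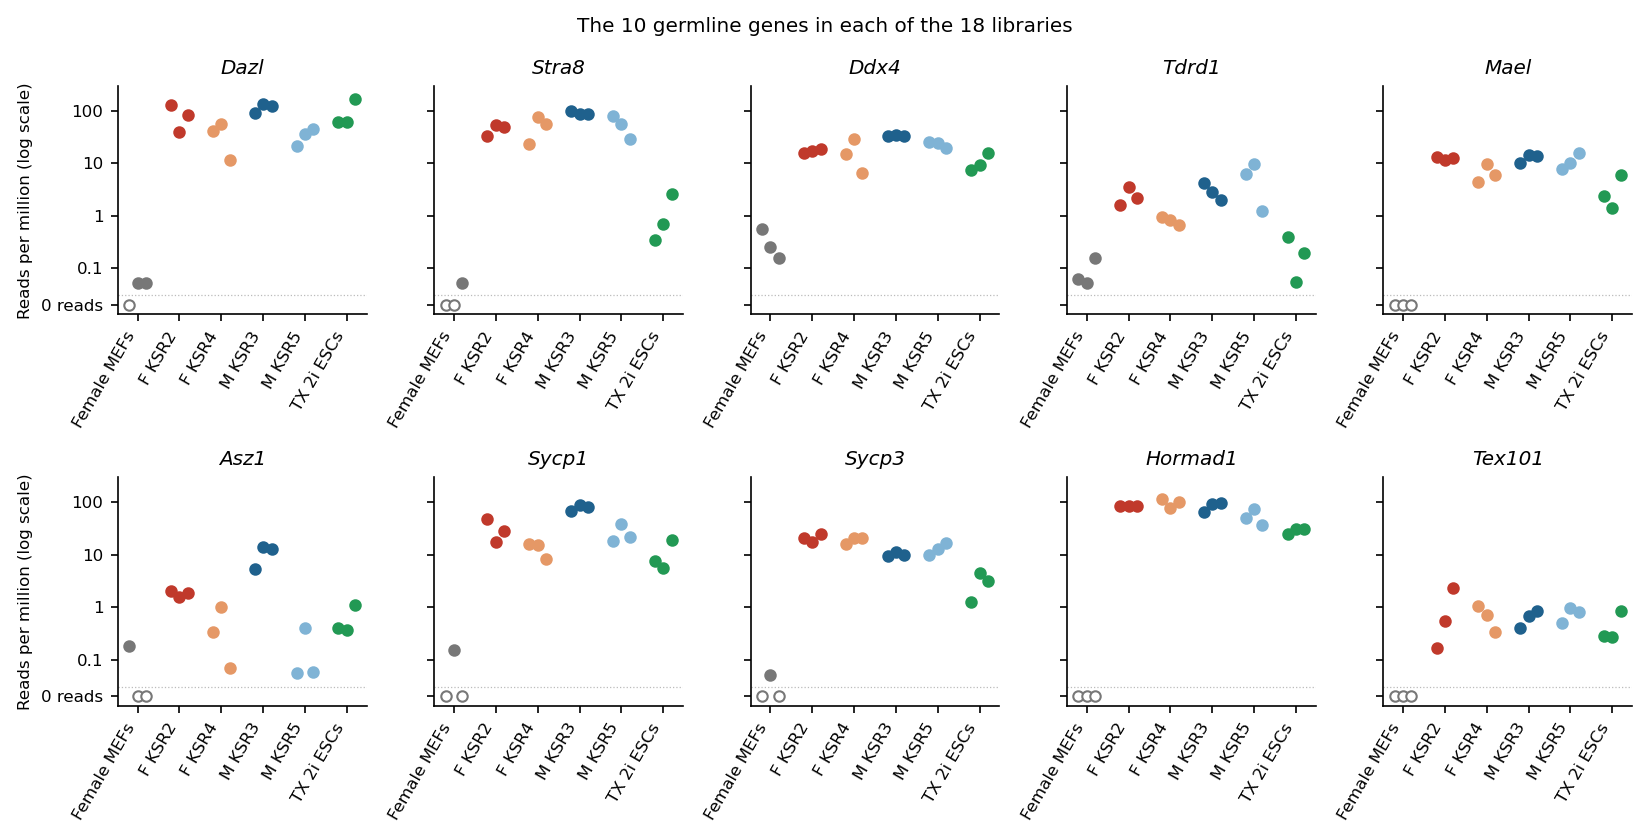
Level of each of the 10 genes in every library, in RPM on a log scale, with 3 points per group and open points for libraries with 0 reads. All 10 genes sit at or near 0 reads in MEFs, Stra8 and Tdrd1 are low in TX 2i ESCs, and Asz1 is spread over the lines from 0.0552 to 14.1 RPM.

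The germ cell regulators come first. Dazl, an RNA-binding protein that licenses germ cells for meiosis (chromosome 17, 50279394 to 50293599), was at 129, 40.0 and 85.0 RPM in F KSR2, at 41.2, 56.9 and 11.4 in F KSR4, at 90.8, 139 and 125 in M KSR3, at 21.3, 36.5 and 44.8 in M KSR5 and at 60.9, 62.0 and 170 in TX 2i ESCs. TX 2i ESC replicate 3 was the highest of all libraries, and TX 2i ESCs overlapped F KSR2 and M KSR3 while lying above every library of F KSR4 and M KSR5. The difference of TX 2i ESCs from the mean of the 4 lines was 0.67 ± 0.42 (SE) on the log2 scale (95% interval -0.22 to 1.56, limma adjusted p = 0.283). M KSR3 was above M KSR5 in every library, by 1.83 ± 0.53 (adjusted p = 0.0626 in limma).

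Stra8, which retinoic acid induces at the entry into meiosis (chromosome 6, 34920163 to 34939342), separated TX 2i ESCs from all iPSC lines. It stood at 0.337, 0.695 and 2.54 RPM in TX 2i ESCs, from 6, 13 and 40 reads. In the 12 KSR-iPSC libraries the lowest was 23.2, the median 56.97 and the highest 98.9 RPM. All 3 libraries of TX 2i ESCs lay below the lowest KSR-iPSC library. The difference was -6.06 ± 0.45 on the log2 scale (95% interval -7.01 to -5.10, limma adjusted p = 2.27e-07). Even so, TX 2i ESCs were above MEFs, which held 1 Stra8 read in all, with a pooled ratio of 62.1 (exact counting interval 10.7 to 2496). The ratio was 28.6 without TX 2i ESC replicate 3, which held 40 of the 59 reads, and 40.0 without MEF replicate 2.

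Ddx4 (chromosome 13, 112598333 to 112652310) was at 16.0, 17.5 and 18.6 RPM in F KSR2, at 15.3, 29.1 and 6.62 in F KSR4, at 32.9, 34.5 and 33.9 in M KSR3, at 25.1, 24.5 and 20.0 in M KSR5 and at 7.35, 9.31 and 15.5 in TX 2i ESCs. M KSR3 was the highest group and did not overlap M KSR5, the next in order, which in turn did not overlap F KSR2. TX 2i ESCs differed from the mean of the 4 lines by -1.04 ± 0.37, just short of the threshold (limma adjusted p = 0.0511). The call was made by limma-voom on the recovered reads (adjusted p = 0.019).

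The piRNA pathway protects the germline genome: PIWI proteins loaded with piRNAs silence transposons, and Tdrd1, Mael and Asz1 act in the cytoplasmic granules where piRNAs are made. Tdrd1, a Tudor protein that binds PIWI proteins (chromosome 19, 56826209 to 56870012), was at 1.57, 3.54 and 2.19 RPM in F KSR2, at 0.937, 0.830 and 0.676 in F KSR4, at 4.25, 2.82 and 2.00 in M KSR3, at 6.24, 9.53 and 1.22 in M KSR5 and at 0.393, 0.0535 and 0.191 in TX 2i ESCs. The 3 TX 2i ESC libraries held 7, 1 and 3 reads, all below the lowest KSR-iPSC library and close to the MEF libraries, which held 1, 1 and 3 reads. The difference from the 4 lines was -3.77 ± 0.60 (limma adjusted p = 0.000271). Among the lines F KSR2 lay above F KSR4 in every library, by 1.51 ± 0.76, which did not pass (limma adjusted p = 0.327).

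Mael, which is needed for transposon silencing in spermatocytes (chromosome 1, 166201385 to 166238744), was at 2.41, 1.39 and 6.11 RPM in TX 2i ESCs, and at 4.35 (lowest), 10.99 (median) and 15.7 RPM (highest) in the KSR-iPSC libraries. Replicate 3 of TX 2i ESCs reached into the range of F KSR4, at 4.35, 9.85 and 6.01 RPM, and the other 2 were below every KSR-iPSC library. The difference was -1.90 ± 0.37 (limma adjusted p = 0.00132).

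Asz1, an ankyrin repeat protein of the same granules (chromosome 6, 18050964 to 18109061), varied most between lines. It was at 5.47, 14.1 and 13.2 RPM in M KSR3, from 94, 275 and 237 reads. F KSR2 followed at 2.02, 1.55 and 1.89 RPM without overlap. TX 2i ESCs (0.393, 0.374 and 1.08 RPM) and F KSR4 (0.331, 0.996 and 0.0676 RPM) overlapped, and M KSR5 was lowest at 0.0552, 0.392 and 0.0579 RPM, from 1, 7 and 1 reads. In M KSR5 the gene was thus at the level of the MEF libraries, at 0.183, 0 and 0 RPM. M KSR3 exceeded M KSR5 by 6.54 ± 0.91 on the log2 scale (95% interval 4.63 to 8.46, limma adjusted p = 0.00113). F KSR2 exceeded F KSR4 by 2.68 ± 0.91, short of the threshold (limma adjusted p = 0.154).

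Sycp1, Sycp3 and Hormad1 build the meiotic chromosome: Sycp3 forms the axis, Hormad1 sits on unsynapsed axes and Sycp1 zips homologous axes together. Hormad1 (chromosome 3, 95559677 to 95587671) was the steadiest of the 10, with a spread of 0.30 within groups (SD of log2 values) against 0.73 between the means of the 5 pluripotent groups. It was at 25.1, 30.6 and 31.6 RPM in TX 2i ESCs and at 37.6 (lowest), 84.5 (median) and 115 RPM (highest) in KSR-iPSCs. The groups did not overlap, and the difference was -1.43 ± 0.19 (limma adjusted p = 6.64e-05).

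Sycp3 (chromosome 10, 88459569 to 88473236) was at 21.2, 17.5 and 25.2 RPM in F KSR2, at 16.2, 21.1 and 21.3 in F KSR4, at 9.31, 11.1 and 9.78 in M KSR3, at 9.78, 13.1 and 16.6 in M KSR5 and at 1.23, 4.49 and 3.12 in TX 2i ESCs. TX 2i ESCs lay below every KSR-iPSC library, and the female lines lay above the male lines except for 1 library each. The difference of TX 2i ESCs from the lines was -2.55 ± 0.31 (limma adjusted p = 2.59e-05). The gene lies wholly inside Chpt1, which runs on the other strand and whose identifier the table gives to the Sycp3 row, so the row was taken by its symbol and coordinates. Chpt1 was at 22.4, 22.5 and 28.0 RPM in MEFs, where Sycp3 had 1 read in all.

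Sycp1 (chromosome 3, 102818499 to 102936100) was at 48.0, 17.5 and 28.2 RPM in F KSR2, at 16.2, 15.1 and 8.45 in F KSR4, at 68.5, 88.6 and 83.3 in M KSR3, at 18.7, 38.8 and 21.8 in M KSR5 and at 7.57, 5.51 and 19.5 in TX 2i ESCs. M KSR3 stood above every other group without overlap. TX 2i ESCs were lower than the 4 lines by a log2 difference of -1.65 ± 0.41 (limma adjusted p = 0.00725), a call that was lost without TX 2i ESC replicate 1 (adjusted p = 0.0516) or replicate 2 (adjusted p = 0.0801).

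Tex101, a surface glycoprotein of germ cells that sperm need to fertilise (chromosome 7, 24668012 to 24672050), had the lowest median of the 10 genes over the KSR-iPSC libraries, at 0.693 RPM. It was at 0.168, 0.536 and 2.31 RPM in F KSR2, at 1.05, 0.719 and 0.338 in F KSR4, at 0.407, 0.667 and 0.833 in M KSR3, at 0.497, 0.953 and 0.810 in M KSR5 and at 0.280, 0.267 and 0.827 in TX 2i ESCs. The pluripotent groups overlapped throughout, and only the MEF libraries, with 0 reads, stood apart. The bound against MEFs was at least 2.78-fold (TX 2i ESCs) to 6.11-fold (F KSR2) higher. It rested on replicate 3 in both groups, without which it was 1.66 in TX 2i ESCs and 2.14 in F KSR2.

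In all, 6 of the 9 tested genes passed between TX 2i ESCs and the 4 KSR-iPSC lines (Stra8, Tdrd1, Sycp3, Mael, Sycp1 and Hormad1), and all 6 were lower in TX 2i ESCs. Of all genes tested 23.0% passed in either direction, 1615 of them lower and 1757 higher, and with limma-voom 1336 lower and 2048 higher. Tdrd1 was below 0 on the log2 scale in every TX 2i ESC and MEF library, so it passed the filter through KSR-iPSC libraries alone. Stra8 was above 0 in TX 2i ESCs in replicate 3 only. The place of these genes in the counts is thus not read against the shares of all genes. The number that passed, 3372, was 2125 to 2154 with any TX 2i ESC library left out and 4317 without F KSR4 replicate 2. At an unadjusted p under 0.05 there were 7 of 9 (34.6% of all genes). The median difference over the 9 genes was -1.65 on the log2 scale, and that over all genes was 0.0045. Libraries of the 2 sides did not overlap for 4 of the 10 genes (Stra8, Tdrd1, Sycp3 and Hormad1), as for 10.2% of the genes tested. With limma-voom 7 of 9 passed, and with M KSR5 replicate 3 and F KSR4 replicate 2 left out 7 of 9 passed as well, Ddx4 being the added gene each time.

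Between the male lines 1 of 9 genes passed, Asz1, higher in M KSR3, where 4.48% of all genes passed in either direction. The libraries did not overlap for 5 of the 10 genes (Dazl, Stra8, Ddx4, Asz1 and Sycp1, all higher in M KSR3), against 32.4% of all genes. With 1 RPM added before the logarithm, or with limma-voom, 3 genes passed, Dazl and Sycp1 being the others. Dazl passed beside Asz1 (2.06, limma adjusted p = 0.034) with M KSR5 replicate 3 and F KSR4 replicate 2 left out. M KSR3 had the highest mean of the 6 groups for 6 of the 10 genes, and TX 2i ESCs stood directly above MEFs, which were lowest for all 10, for 8 of 10. M KSR3 also stood apart in another list: 7 primitive endoderm markers summed to between 197 and 233 RPM there, to between 27.9 and 90.8 RPM in the other KSR-iPSC libraries, to between 13.0 and 26.6 RPM in TX 2i ESCs and to between 184 and 289 RPM in MEFs. The part of such cells in these differences was not tested.

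Between the female lines 0 of 9 genes passed in limma (1.14% of all genes did) and 0 in limma-voom, while 3 of 9 had an unadjusted p under 0.05 (17.0% of all genes). F KSR2 was above F KSR4 in every library for Tdrd1, Mael, Asz1 and Sycp1, 4 of 10 genes, against 11.5% of all genes without overlap. For Stra8 the difference was -0.06 ± 0.58 with a 95% interval from -1.27 to 1.15. With M KSR5 replicate 3 and F KSR4 replicate 2 left out, Asz1 passed (3.60, limma adjusted p = 0.0494).

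Between the sexes 1 of 9 genes passed: Sycp3 was higher in female KSR-iPSCs by 0.83 ± 0.20 (limma adjusted p = 0.0305), with 5 of 6 female libraries above every male library, where 2.87% of all genes tested passed in either direction. This fit treats the 6 libraries of a sex as replicates although they come from 2 clones. With the line as a random effect the adjusted p was 0.0946 and over means of the lines it was 0.455, and since the female lines came from another embryo than the male ones, a difference by sex and a difference by embryo cannot be told apart. For Dazl, Stra8, Ddx4, Tdrd1, Mael, Asz1 and Sycp1 the male mean was the higher, and none of the 7 passed (limma adjusted p from 0.129 to 0.868). Without M KSR5 replicate 3 and F KSR4 replicate 2, Ddx4 (-1.10, limma adjusted p = 0.033) and Stra8 (-0.97, limma adjusted p = 0.0375) passed beside Sycp3 (0.93, limma adjusted p = 0.0155).

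**Figure D2:**
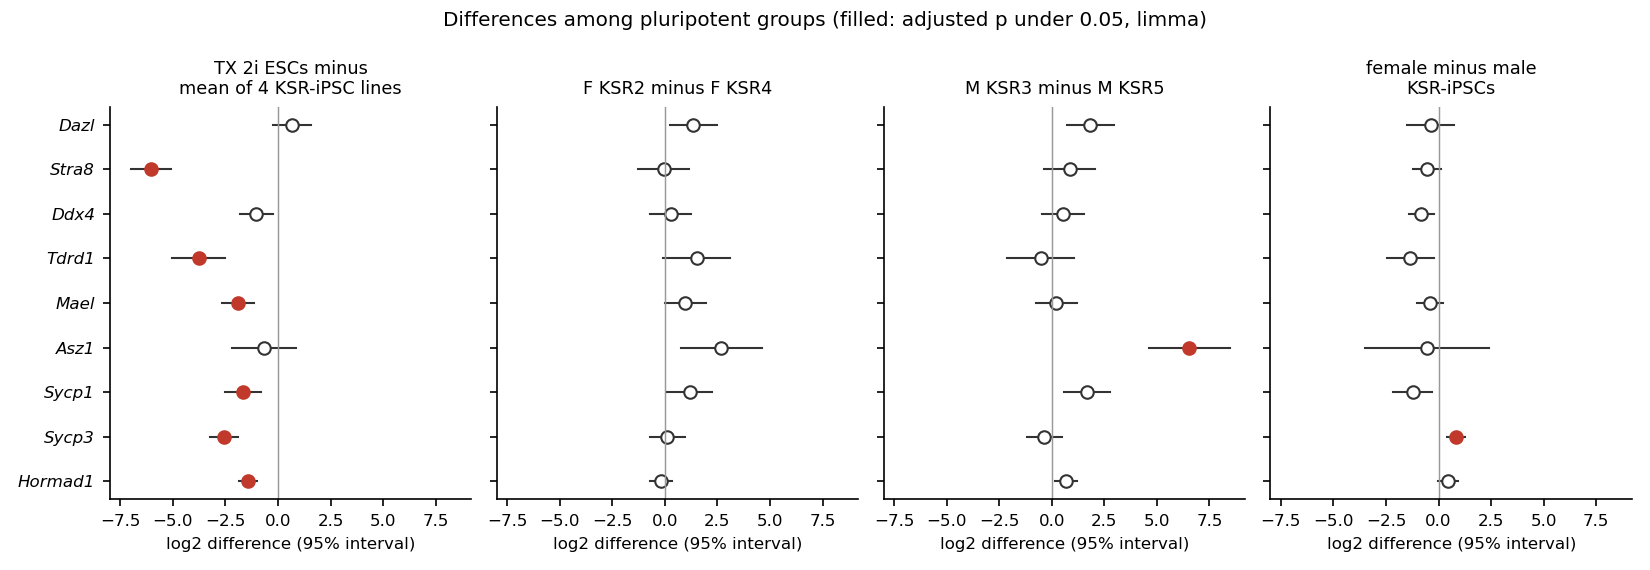
Fitted log2 differences of the 9 tested genes in 4 comparisons among pluripotent groups, with 95% intervals from limma and filled points where the adjusted p was under 0.05. In all 6 genes are filled on the negative side for TX 2i ESCs, none between the female lines, Asz1 alone between the male lines and Sycp3 alone between the sexes.

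To compare genes with each other, mean RPM was divided by the kilobases of exon in the protein-coding transcripts of the annotation. On that scale Hormad1 (47.0), Stra8 (34.1) and Dazl (22.4) led in the 12 KSR-iPSC libraries, followed by Sycp3 (12.7), Sycp1 (10.99), Ddx4 (7.58), Mael (6.24), Asz1 (1.92), Tex101 (0.731) and Tdrd1 (0.548). In TX 2i ESCs the order of levels per kilobase was Dazl (32.0), Hormad1 (16.8), Ddx4 (3.55), Sycp1 (3.16), Sycp3 (2.33), Mael (1.91), Stra8 (0.661), Tex101 (0.433), Asz1 (0.355) and Tdrd1 (0.0390). Stra8 thus stood next to the top in KSR-iPSCs and behind Dazl, Hormad1, Ddx4, Sycp1, Sycp3 and Mael in TX 2i ESCs, while Tdrd1 was last in both. By RPM the 3 genes Dazl, Hormad1 and Stra8 gave between 59.3 and 81.5% of the reads of the 10 genes in every pluripotent library.

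**Figure D3:**
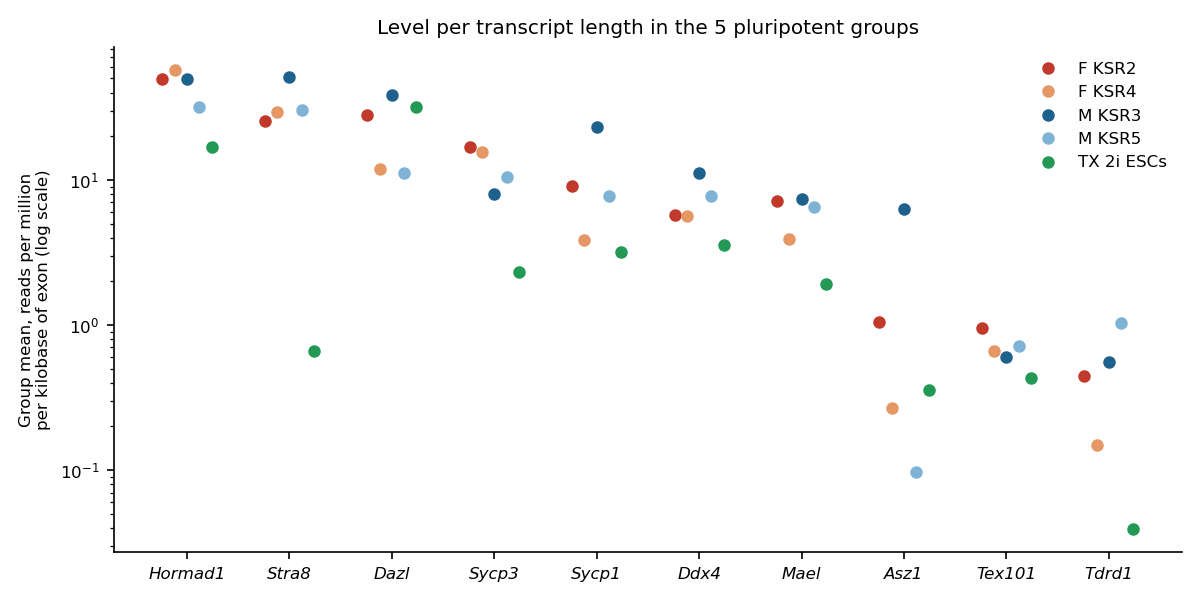
Mean level of the 10 genes in the 5 pluripotent groups, in RPM per kilobase of exon on a log scale, ordered by the mean over the KSR-iPSC libraries. The levels span from 0.0390 for Tdrd1 in TX 2i ESCs to 51.1 for Stra8 in M KSR3 and 57.2 for Hormad1 in F KSR4.

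The genes did not vary as a block. Over the 15 pluripotent libraries the 36 pairs of tested genes had Pearson correlations of log2 values between -0.26 and 0.83 with a median of 0.55. After the mean of each group was removed the median was 0.26, the lowest -0.74 (Sycp3 with Tdrd1) and the highest 0.84 (Dazl with Sycp1). The libraries share 5 groups, so these values describe the libraries and carry no test. Within a group the largest ratios between libraries were 14.7 for Asz1 (F KSR4), 13.8 for Tex101 (F KSR2), 7.84 for Tdrd1 (M KSR5) and 7.56 for Stra8 (TX 2i ESCs), and the largest for Hormad1 was 2.02 (M KSR5).

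The genes outside the list whose log2 values followed the mean of the 9 standardised genes most closely over the 15 libraries were Taf7l (Pearson r = 0.93), As3mt (0.92), Lamb1 (0.91), Col6a4 (0.90) and Stat5a (0.90), among 14632 genes. The listed genes themselves had r between 0.34 (Dazl) and 0.91 (Sycp1) with that mean. Each of them is part of the mean, which raises its r, so these values are not comparable with those of the outside genes. Taf7l, a germ cell paralogue of a TFIID subunit, was at a log2 level of 3.89 in M KSR3, 3.25 in F KSR2, 2.63 in M KSR5, 2.46 in F KSR4, 0.97 in TX 2i ESCs and -4.24 in MEFs. In MEFs Col6a4 was at -3.19, but As3mt was at 3.48, Stat5a at 3.92 and Lamb1 at 8.22, so likeness over the pluripotent libraries did not go with silence in MEFs for these 3 genes. The points share their lines, and no test was made.

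Reads that cross a sequence difference between BL6 and CAST tell the parental copies apart. The maternal share of these allelic reads, pooled over the 3 libraries of a group, could be given for 37 pairs of a gene and a group with at least 10 allelic reads, and it lay between 10 and 90% in 32 of them. Intervals on pooled reads cover counting error only, and the shares of single libraries spread more widely for some genes, with an SD of 12.5 percentage points for Sycp1 in F KSR2 and of 18.8 for Tdrd1 in M KSR3. The cross was made in 1 direction, so the maternal copy is always BL6, and parent and strain cannot be told apart. On the chromosomes of the 10 genes the share over all genes was between 49.3 and 54.1% apart from chromosome 6 in F KSR2, at 96.8%, and chromosome 1 in M KSR3, at 68.0%.

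Dazl gave more CAST than BL6 reads in every pluripotent group, with 41.5% maternal (Wilson 95% interval 36.3 to 47.0) in F KSR2 and 33.2% (28.5 to 38.4) in TX 2i ESCs. In M KSR5 the interval of Dazl held 50% (42.8%, 34.8 to 51.1). Sycp1 also gave more CAST reads in every group, between 33.2% in M KSR3 (29.4 to 37.3) and 42.9% in F KSR2 (36.2 to 49.7). Its intervals in F KSR4 (27.6 to 50.1) and TX 2i ESCs (28.5 to 52.0) held 50%. Tdrd1 was at 25.9% (19.3 to 33.9) in M KSR5, 29.6% in M KSR3 and 32.0% in F KSR2. These 3 genes were read from both copies with more CAST than BL6 reads in each group given.

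Ddx4 (57.3 to 67.6%), Hormad1 (53.6 to 66.7%) and Sycp3 (61.0 to 76.3%) gave more BL6 than CAST reads in every group that could be given. For Hormad1 in F KSR2 (55.2%, interval 50.7 to 59.7) the share lay close to that of all genes on chromosome 3, at 53.5%. In TX 2i ESCs Hormad1 was at 53.6% (45.7 to 61.3) against 53.7% for chromosome 3. Its intervals in F KSR4 (52.5 to 60.9) and M KSR5 (51.4 to 62.5) also held the chromosome 3 share, at 53.6 and 54.0%. Only in M KSR3 did the interval (66.7%, 62.5 to 70.7) lie above that share, at 53.5%. Asz1 had enough reads only in M KSR3, with 47 of 70 reads maternal (67.1%, interval 55.5 to 77.0). Stra8 was at 72.0 to 77.7% in F KSR4, M KSR3 and M KSR5 and at 65.0% in TX 2i ESCs, there from 20 reads (43.3 to 81.9). In F KSR2, where the whole of chromosome 6 was maternal, 922 of 935 Stra8 reads were maternal (98.6%), and its level of 33.8, 53.9 and 50.0 RPM overlapped that of F KSR4, at 23.2, 77.7 and 57.2 RPM.

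Mael was read almost only from the BL6 copy in all 4 lines. The maternal reads numbered 38 of 40 in F KSR2, 11 of 12 in F KSR4, 37 of 37 in M KSR3 and 38 of 40 in M KSR5, with shares of 95.0% in F KSR2 and M KSR5 and, from 12 reads, 91.7% in F KSR4 (64.6 to 98.5). In TX 2i ESCs 7 of 7 allelic reads were maternal. In M KSR3, whose chromosome 1 leaned to the maternal copy, Mael was at 10.2, 14.3 and 13.9 RPM and overlapped F KSR2. Allelic reads at one gene can rest on few sequence differences, and how evenly reads of both genomes map there was not tested.

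**Figure D4:**
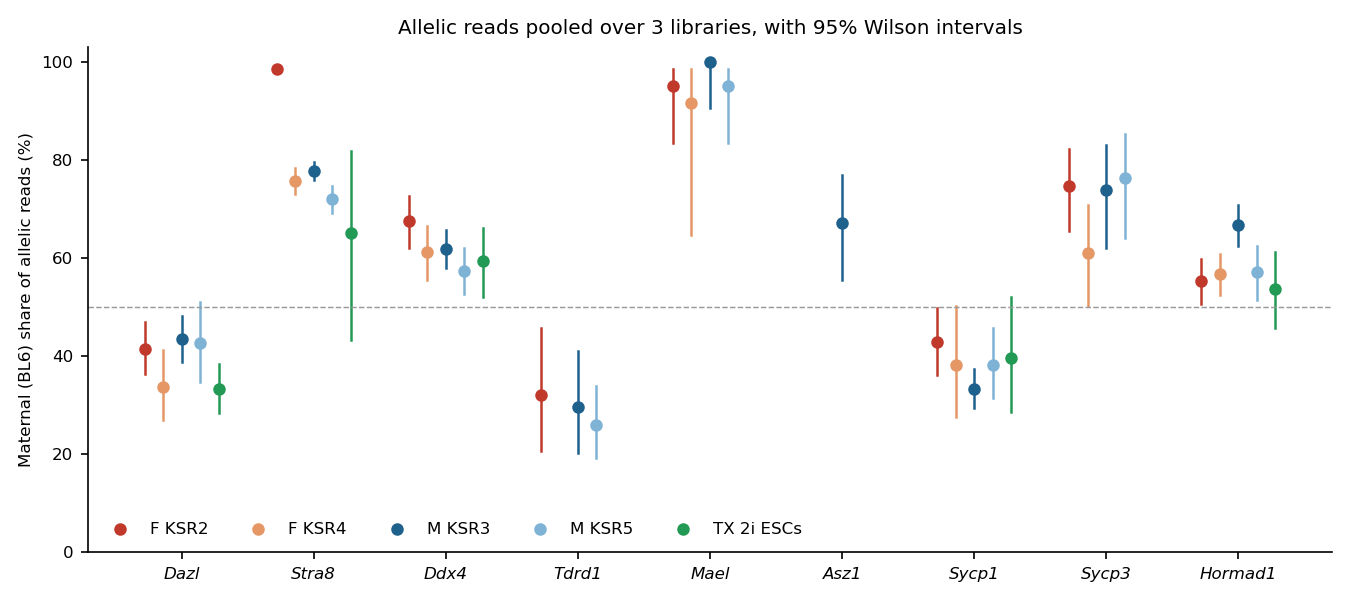
Maternal (BL6) share of allelic reads in percent for each gene and pluripotent group with at least 10 such reads, pooled over 3 libraries, with 95% Wilson intervals and a dashed line at 50%. Mael sits above 90% in the 4 lines, Stra8 reaches 98.6% in F KSR2 only, and Dazl, Sycp1 and Tdrd1 sit below 50%.

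Other germline genes were followed by pathway, and most but not all of those tested were higher than in MEFs, where 34.6 to 39.4% of all genes were. Genes near the floor in MEFs, such as Dmc1 and Tex19.1, could pass the filter only through pluripotent libraries. The counts of these lists are thus not read against that share. Of 15 further piRNA genes measured 14 were tested, and 10 were higher and 1 lower than in MEFs in each KSR-iPSC line, and 9 were higher and 2 lower in TX 2i ESCs. Tdrd7 was lower in every group and Tdrkh in TX 2i ESCs, and Tdrd9 and Exd1 passed in none. Rnf17, a Tudor protein, was among the leading 3 in every group, with a mean log2 level between 4.91 (F KSR4) and 6.61 (M KSR3) against -2.56 in MEFs. Of 11 tested meiotic chromosome genes 9 were higher in each line and 8 in TX 2i ESCs, with Dmc1, the meiotic recombinase, among the leading 3 in every group at 4.07 (TX 2i ESCs) to 5.64 (M KSR5) against -3.47. Of 12 tested germline genes with CpG-rich promoters 11 were higher in every group and 1 lower in TX 2i ESCs, with Tex19.1 among the leading 3 at a mean log2 level between 5.93 and 6.85 against -4.29 in MEFs.

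Late sperm genes gave little signal. Of 14 spermatid genes, such as those of protamines, 2 passed the filter on low values, Ldhc and Izumo1, and their mean log2 levels reached at most 0.75 (Ldhc in M KSR3) and 0.43 (Izumo1 in TX 2i ESCs). Of 10 factors of germ cell specification 6 were tested and 6 were higher than in MEFs in every group. Of all genes 34.6 to 39.4% were higher, and the same limit of the filter holds, so the count is not read against that share. Prdm14, a regulator of both naive pluripotency and primordial germ cells, was at a mean log2 level of 4.18 (M KSR5) to 6.66 (TX 2i ESCs) against -4.34 in MEFs, where it had 0 reads.

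Between TX 2i ESCs and the 4 KSR-iPSC lines the further lists split. Of 14 piRNA genes 3 were lower and 1 higher, where 1615 and 1757 of 14632 genes were. Piwil4, a nuclear PIWI protein, was lower by a log2 difference of -3.99 ± 0.57 (limma adjusted p = 9.99e-05), Tdrd5 by -2.38 ± 0.40, and Tdrd12 was higher by 1.40 ± 0.27. Of 11 meiotic genes 3 were lower and 1 higher, with Sycp2, the partner of Sycp3 in the axis, at -4.27 ± 0.59 (limma adjusted p = 7.37e-05), Smc1b at -1.95 ± 0.50 and Dmc1 at -1.07 ± 0.34. Of 12 other germline genes with CpG-rich promoters 4 were lower and 1 higher: Slc25a31 differed by -2.49 ± 0.62, Taf7l by -2.09 ± 0.42 and Rpl10l by 1.64 ± 0.29. Prdm14 was the 1 specification factor of 6 that passed, higher in TX 2i ESCs by 1.89 ± 0.26. Piwil4 and Sycp2 were near the floor in TX 2i ESCs, at mean log2 levels of -2.87 and -3.11. A gene at the floor there can pass the filter only through other groups, so these counts are not read against the share of all genes.

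Machinery that represses germline genes was measured too, and with it the Tet enzymes, which act in DNA demethylation. The complex PRC1.6, with Mga, Max, E2f6 and L3mbtl2, and the H3K9 methyltransferases repress germline genes, and Dnmt enzymes methylate their promoters. Of 18 genes of PRC1.6 and H3K9 methylation 11 to 13 were higher and 2 to 4 lower than in MEFs, L3mbtl2 leading in every group, against 34.6 to 39.4% of all genes higher. Of the 18, 3 were lower in TX 2i ESCs than in the lines and 2 higher, the leading ones being Max (-0.69 ± 0.14), Ring1 (-0.58 ± 0.20) and Wdr5 (0.58 ± 0.12), a share near the 23.0% of all genes that passed. Of 8 genes of DNA methylation 1 passed, too few genes to read against the 23.0% of all genes that passed. It was Dnmt3a, with a log2 difference of -1.59 ± 0.26 in TX 2i ESCs (limma adjusted p = 0.000282). Against MEFs 7 of these 8 genes, which include the Tet genes, were higher and 1 lower in every group, Dnmt3l, Tet1 and Dnmt3b leading. Of all genes 34.6 to 39.4% were higher. Dnmt3l, at a mean log2 level of -2.36 in MEFs, could pass the filter only with pluripotent libraries, so this count is not read against that share. Between the male lines Setdb1 was higher in M KSR3 (0.70 ± 0.16), as were Sohlh2 (1.80 ± 0.28), Tuba3b (1.96 ± 0.47) and Fkbp6 (1.58 ± 0.36), while Nanos3 was lower (-1.92 ± 0.53). Between the female lines Wdr5 was higher (0.69 ± 0.15) and Tuba3b lower (-2.14 ± 0.47) in F KSR2. Between the sexes Piwil2 (-1.67 ± 0.38) and Rnf17 (-0.999 ± 0.24) were lower and Prdm14 (1.06 ± 0.23) and Prdm1 (0.91 ± 0.20) higher in female KSR-iPSCs in the fit over 6 libraries a sex. With the line as a random effect none of these 4 passed (limma adjusted p from 0.0657 to 0.0816), nor over means of the lines (limma adjusted p from 0.272 to 0.427).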

How the data were processed

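RNA-seq was analysed for 18 libraries, and the bisulfite amplicon samples of the series were not analysed here. The deposited values are log2 RPM (reads of a gene scaled to mapped reads): per the labels and methods, the authors trimmed reads with Trim Galore (version 0.6.1), mapped them with HISAT2 (version 2.1.0) to GRCm38 and counted them by strand over transcripts in SeqMonk. The deposited log2 values hold 0 reads at the value of 0.9 read, so whole reads could be recovered (at least 99.96% of values were whole within 0.05). Separate columns hold reads assigned to BL6 or CAST. The members and lists were chosen with earlier results of these data known. Log2 values were tested with limma (version 3.58.1, R version 4.3.3) with an intensity trend, for genes above 0 in at least 3 libraries compared, with Benjamini-Hochberg adjustment over all genes tested and a threshold of 0.05. Fits used 18 libraries, or 12 for the sexes, without a replicate block. All 10 members were named in every comparison, for other lists the 3 genes past the threshold with the largest difference, and for likeness the 5 closest genes. Listed genes found under no symbol in the table were not used (Henmt1, Meioc, Terb1, Majin and Usp17la). The fit was tested on simulated data. Gene lengths came from GENCODE and promoters from RefSeq (GRCm38.p6). P-values measure the spread between the libraries of a group. Leaving out libraries, other scalings, filters and limma-voom were tried as alternatives.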

Additional observations from a re-analysis of the deposited data

How the results depend on the processing

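The number of gene and group pairs higher than in MEFs was 42 of 45 and stayed between 40 and 47 over all alternatives, without any filter being the highest (47 of 50). The number lower in TX 2i ESCs was 6 and lay between 5 and 8, with Ddx4 and Asz1 added at 1 RPM. Of 50 calls on single genes, 46 held in every alternative. Tdrd1 in F KSR4 against MEFs (adjusted p = 0.108) and Asz1 in TX 2i ESCs against MEFs (0.0889) lost theirs with 1 RPM added before the logarithm, the latter also without TX 2i ESC replicate 3 (0.0514). The other 2 that lost a call were Sycp1 between TX 2i ESCs and the lines, as given above, and Sycp3 between the sexes. The cause was not tested.

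The count between the sexes was 1 and became 0 with line as a random effect or over means of the lines, the latter having 4 values. It was 3 without M KSR5 replicate 3 and F KSR4 replicate 2 together, an alternative chosen after seeing the data, and leaving out single libraries gave 0 to 2. Sycp3 lost its call without F KSR2 replicate 1 or 3, without any replicate of M KSR3 or without M KSR5 replicate 1 (adjusted p from 0.0574 to 0.0874). Ddx4 passed without F KSR4 replicate 2 (adjusted p = 0.0479). In the fit of all 18 libraries Sycp1 passed (adjusted p = 0.0401) and Sycp3 did not (0.0686). The count between the male lines was 1 and became 3 with 1 RPM added or with limma-voom, 2 without those 2 libraries, and 1 to 2 with single libraries left out. Dazl passed without F KSR4 replicate 2 or 3 (adjusted p = 0.0323 and 0.0198) and Sycp1 without MEF replicate 2 (0.0457). Between the female lines the count was 0 and became 1 without both libraries. The maternal share lay between 10 and 90% in 32 pairs, in 31 with at least 30 reads and in 33 as the mean of library shares.

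Some differences that passed no test changed sign. Between the female lines the difference of Sycp3 was 0.12 on the log2 scale, -0.0054 with median-of-ratios scaling and -0.010 to 0.25 with single libraries left out. That of Stra8 was -0.06, 0.31 without both libraries and -0.57 to 0.31 with single libraries left out, and that of Ddx4 was 0.27 and -0.28 to 0.78. With single libraries left out the difference of Tdrd1 between the male lines (-0.53) was -1.42 to 0.066, that of Asz1 in M KSR5 against MEFs (0.55) was -0.38 to 1.21, and between the sexes those of Asz1 (-0.55) and Dazl (-0.37) were -1.39 to 0.21 and -0.68 to 0.042.

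The replicate block gave 42, 6, 1, 0 and 1 calls, as without it, for MEFs, TX 2i ESCs, the sexes, the female and the male lines, so it changed no count of calls on the 10 genes. The labels tie replicate numbers to no shared batch, and deviations from group means of same-numbered libraries correlated between -0.20 and 0.38 (13 of 45 pairs over 0.1), so the numbers were not taken to pair the samples. As a hint from the data, 13 of 18 libraries correlated best with a library of their own number. Median-of-ratios scaling moved the median difference of all genes between the female lines from 0.14 to 0.01 and the share of higher calls from 50.3 to 30.4%, and between the sexes from 55.4 to 71.0%. Against MEFs it moved the median in F KSR2 from 0.24 to 0.05. Over all genes, the fit of 18 libraries called 1523 between the sexes against 390, with line as a random effect 138 and over means of the lines 4, and the block called 282 against 167 between the female lines, where leaving out F KSR4 replicate 1 gave 1660 and F KSR2 replicate 1 gave 66. Between the male lines 656 genes passed, 148 without M KSR3 replicate 2, 145 without M KSR3 replicate 3 and 1182 without F KSR4 replicate 2. Without both libraries 665 passed between the sexes, 4311 for TX 2i ESCs and 311 between the female lines. Depth limits Asz1, Tdrd1 and Tex101 most, whose groups held as few as 9, 11 and 23 reads.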
